A study of Saccharomyces cerevisiae with 6 samples.

Results

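D8A and D8B are 2 strains of budding yeast (Saccharomyces cerevisiae) that carry the same genotype label, and their RNA profiles were set against each other here. The 2 D8B libraries were compared with the 2 D8A libraries, 4 of the 6 in the series, over every feature whose estimate had the status OK, of which 6925 had a mean of at least 1 FPKM. FPKM is the number of fragments per kilobase of a feature, scaled to the mapped total of the library. Both strains were labelled MATa and his3 leu2 met15 ura3 in the S288c background. In both, the 8 thiol peroxidase genes were labelled as replaced by selectable markers. KAN stood at tsa1 and gpx3, LEU2 at tsa2, MET15 at dot5, HIS3 at ahp1, URA3 at prx1 and gpx1, and HYG at gpx2. Both were also labelled delta-srx1:NAT. The reference strain, titled Wt-M11 with the source name Wtmonosome-XI, was labelled MAT a, GAL and [phi+], with the alleles his3-11,15 and can1-100, with ade2-1 and trp1-1 and with leu2-3 and ura3, and with HIS3 and KanMX6 inserted between YKL006C-A and YKL006W. It gives the level of a strain with intact peroxidase genes and differs from both null strains in its markers as well. All 3 strains were grown in YPD, a rich medium with glucose, and messenger RNA was isolated with magnetic beads. The study's title concerns aneuploidy in strains without thiol peroxidases. The labels do not say how D8A and D8B were derived from each other, nor what sets them apart.

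Thiol peroxidases are small enzymes that use a reactive cysteine to reduce hydrogen peroxide and organic peroxides, and Srx1 repairs peroxiredoxins that have been overoxidised. Yeast cells short of iron turn on the Aft1 regulon, which imports iron at the cell surface and spares it inside the cell. Iron, haem and sterols are connected in this organism, because the respiratory chain and several steps of sterol synthesis use iron or haem, and the synthesis of sterols and haem needs oxygen. In glucose medium yeast ferments, and genes of the respiratory chain, which the Hap complex activates, are held at a low level by glucose repression.

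Estimated depth was 4.02 M and 8.06 M fragments in D8A replicates 1 and 2, 14.2 M and 10.6 M in D8B, and 9.15 M and 10.1 M in wild type. D8A replicate 1 was the shallowest library and had the most features listed at 0, which were 258 against 108 to 140 elsewhere. Across features the D8B replicates correlated with r = 0.973 and the D8A replicates with r = 0.938, where features are not independent replicates. D8A replicate 2 correlated with D8B replicate 1 at r = 0.965, above its value with its own replicate. In 63.4% of features the 2 D8A libraries differed by more than the strain means did. The genes described in most detail are therefore given with both D8A libraries. Nothing in the labels states whether the replicates were grown separately, and p-values cover only the spread among these libraries, part of which may be technical. An exact permutation test of 2 libraries against 2 cannot go below p = 0.333, so single values are tested only in models fitted over all features with limma.

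The genes labelled as deleted were checked first. None of the 4 null libraries had a value above 0 for PRX1, GPX1 or GPX2. TSA1 stood at 6.42 and 9.94 FPKM in D8A and at 8.03 and 7.77 FPKM in D8B, against 2029 and 1723 FPKM in wild type. DOT5, AHP1, HYR1 (labelled gpx3) and TSA2 were at most 1.64 FPKM in every null library. SRX1 went against its label in both strains. The libraries labelled as lacking it held 319 and 415 FPKM of SRX1 in D8A and 654 and 584 FPKM in D8B, against 52.8 and 76.8 FPKM in wild type. Both D8B libraries were above both D8A libraries, and the difference of 0.76 ± 0.27 (SE, log2) did not pass in limma (adjusted p = 0.443). None of the 9 genes passed in limma between D8B and D8A, and 2 of them, SRX1 and TSA2, had an unadjusted p under 0.05. STE2, the receptor that a cells use to sense alpha factor, was at 113 to 200 FPKM in the null libraries, and STE3, its counterpart in alpha cells, at 12.1 to 19 FPKM.

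Over all 6925 features, 23 differed between D8B and D8A in limma (0.332%; Benjamini-Hochberg adjusted p under 0.05 on log2(FPKM + 1)), 15 of them higher in D8B and 8 lower. Short features had deposited FPKM values well outside their own confidence intervals and varied widely, and the fit that held them had 4.71 prior degrees of freedom. A fit over the 6177 features of 300 bp or more called 197 (3.19%), with 100 higher (1.62%) and 97 lower in D8B (1.57%), and it held 17 of the 23. In the long-feature fit the moderated error of a gene came almost wholly from the trend over all genes, with 247 prior degrees of freedom against 3 residual. The error of a gene whose 2 D8A libraries lay far apart therefore reflected only a small part of that distance there. Calls of the long-feature fit are therefore given below with the adjusted p of the all-feature fit, for a gene or as the range of a group. Of the 197 calls, 45 also passed in each of 4 fits that left out 1 null library in turn, 24 higher and 21 lower. Of the genes named below, these were YBR012C, YBR013C, YCL021W-A, YHL008C, YAR070C, YHR214C-E, YOR203W, LEU2, URA3, ARN2, SIT1, ENB1, FTR1, FRE2, ERG28, ERG2, ERG3, ERG4, ATF2, TIR1, OAC1, DIC1, YLR349W, TMT1, SDH1, SDH2, CYT1, NDI1, ARO9, ARO10, YHR137C-A, AAD6, AAD16, PHO5, PHO89, HXK1, UBI4, PTR2 and YNR064C. Any other gene named below that the long-feature fit called lost its call in at least 1 of the 4 fits. Each of these fits left a strain with 1 library, so the replicate spread of that strain did not enter. Without D8B replicate 1 or 2 the prior degrees of freedom were infinite, and the error came wholly from the trend. Passing these fits therefore does not show that a difference exceeds the replicate spread of that gene, here or in the lists below. Over all features fewer calls stood without a library: of the 23, 15 and 19 passed without D8A replicates 1 and 2, 9 and 8 without D8B replicates 1 and 2, and 18 without either wild-type library. Among all long features 1236 (20%) had both D8B libraries above both D8A libraries and 941 (15.2%) had both below. The median difference over all features was 0.07 on the log2 scale.

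The wild-type level did not mark one strain as the shifted one. Among the 100 genes higher in D8B the wild-type mean was nearer D8B for 49 and nearer D8A for 51. Among the 97 lower genes it was nearer D8B for 43 and nearer D8A for 54.

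Large single differences were present at a few places where one strain had transcript and the other had none listed. YBR012C (chrII:259147-259566, R64) and YBR013C (chrII:265492-265881), a pair of open reading frames, flank the Ty1 retrotransposon YBRWTy1-2 of the reference genome at 12 bp and 0 bp. Ty elements are retrotransposons that copy themselves through RNA and insert into the genome. YBR012C was listed at 0 in both D8A libraries, at 54.9 and 112 FPKM in D8B and at 0 and 0.457 FPKM in wild type. YBR013C was listed at 0 in D8A and in wild type and stood at 91.8 and 68.2 FPKM in D8B. Both were detected in D8B and at or near 0 in the other 4 libraries (limma adjusted p = 0.000608 and 0.000107 over all features). The interval bounds of YBR012C corresponded to 147 to 217 and 232 to 320 fragments in the D8B libraries and to 0 in D8A.

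YCL021W-A (chrIII:83620-83997) showed the reverse pattern. It stood at 61.3 and 60.5 FPKM in D8A and at 35.7 and 46.5 FPKM in wild type, and at 0.405 and 0 FPKM in D8B. D8B alone lacked it (limma adjusted p = 3.75e-05 over all features). It lies 814 bp from the Ty2 element YCLWTy2-1, and LEU2 lies 555 bp from the other end of the same element. YHL008C, which codes for a putative membrane transporter (chrVIII:92627-94510), is 866 bp from the Ty4 element YHLWTy4-1. Its FPKM was 2.66 and 3.18 in D8A, 3.32 and 3.76 in wild type and 15.9 and 19.1 in D8B. Both D8B libraries were above the other 4, with a difference of 2.24 ± 0.26 (SE, log2; limma adjusted p = 0.021 over all features). Among features of 300 bp or more outside Ty reading frames, 1.86% of 6130 lay within 2 kb of a reference Ty element. Among those called it was 8 of 196 (4.08%), and among the 41 called with a difference of at least 1.5 on the log2 scale it was 5 (12.2%). These features are not all separate places, since YBR012C and YBR013C flank the same element, and YCL021W-A and LEU2 share another. Where Ty elements stand in the genomes of D8A and D8B was not measured.

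Most features listed at 0 in both D8A libraries and above 1 FPKM in D8B were short. Of 16 such features, which include YBR012C and YBR013C, 13 were under 300 bp, and 3 were also at 0 in both wild-type libraries. In the reverse direction 2 features were under 0.5 FPKM in D8B and above 1 FPKM in D8A. The D8A libraries were the shallowest of the series, at 4.02 M and 8.06 M fragments, and the part of depth in these zeros was not tested. YHL015W-A is an 84 bp open reading frame on chromosome VIII (74699-74782, plus strand). It was listed at 0 in the wild-type and D8A libraries and at 268 and 238 FPKM in D8B. D8B held all of its signal (limma adjusted p = 7.18e-06). Its interval bounds, however, corresponded to only 1 to 12 and 0 to 9 fragments in the D8B libraries, and its call was lost with the midpoint of the interval in place of FPKM (adjusted p = 0.0736). YGR204C-A (114 bp, chromosome VII, 909061-909174, minus strand) was at 169 and 123 FPKM in wild type and at 110 and 146 FPKM in D8B. D8A alone had it listed at 0, and its D8B bounds corresponded to 2 to 16 fragments in each library. Both sequences, read from the RefSeq R64 reference, are shown because these few short runs of letters carry some of the lowest adjusted p-values of the comparison on a handful of fragments.
YHL015W-A: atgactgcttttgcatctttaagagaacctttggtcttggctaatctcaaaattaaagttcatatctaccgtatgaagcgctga
YGR204C-A: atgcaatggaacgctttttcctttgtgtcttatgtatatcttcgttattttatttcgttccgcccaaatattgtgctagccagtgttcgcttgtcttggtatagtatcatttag

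A pair of near-identical reading frames was lower in D8B. YAR070C on chromosome I and YHR214C-E on chromosome VIII are identical at 296 of 300 bases (98.7%), so the counting could split reads between them. YAR070C was at 13.7 and 14.9 FPKM in D8A, at 1.06 and 1.88 FPKM in D8B and at 7.11 and 16.3 FPKM in wild type. YHR214C-E was at 13.7 and 12.4 FPKM in D8A and at 2.48 and 3.77 FPKM in D8B. Both were lower in D8B without overlap (limma adjusted p = 0.0472 and 0.0369 over all features). Within 30 kb of a chromosome end 19 of 427 long features were higher and 14 lower (7.73% called), against 2.85% called elsewhere.

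The auxotrophic markers, which the labels place at the deleted genes, differed between the strains in both directions. The tables give 1 value per gene name, so copies at the original locus and at a deletion cannot be told apart. URA3, the orotidine phosphate decarboxylase of uracil synthesis (chrV:116167-116970), was at 209 and 294 FPKM in D8A and at 70.5 and 59.1 FPKM in D8B, with 158 and 145 FPKM in wild type. It was lower in D8B by both fits, with a difference of -1.92 ± 0.24 (SE, log2; limma adjusted p = 0.0233 over all features). Its neighbour TIM9, which codes for a chaperone of the mitochondrial intermembrane space, stood at 594 and 859 FPKM in D8A and at 341 and 275 FPKM in D8B, a difference of -1.22 ± 0.27 (SE, log2) that did not pass (adjusted p = 0.159). LEU2, an enzyme of leucine synthesis (chrIII:91324-92418), was at 63.9 and 56.5 FPKM in D8A and at 147 and 145 FPKM in D8B, beside 141 and 137 FPKM in wild type. The D8B level lay at the wild-type level, and the difference of 1.27 ± 0.24 (SE, log2) passed over long features (limma adjusted p = 3.88e-05) and not over all (0.0601).

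HIS3, an enzyme of histidine synthesis (chrXV:721946-722608), was at 141 and 168 FPKM in D8A and at 297 and 251 FPKM in D8B, against 78.3 and 76.2 FPKM in wild type. The 3 strains did not overlap, and the difference between D8B and D8A of 0.82 ± 0.25 (SE, log2) passed over long features (limma adjusted p = 0.0329; 0.253 over all features). YOR203W, a reading frame that shares its first 44 bp with the end of HIS3, was at 26.4 and 44.5 FPKM in D8A and at 178 and 147 FPKM in D8B (limma adjusted p = 0.0226 over all features). The overlap means that reads of HIS3 and of YOR203W cannot be fully told apart. DED1, the next gene, an RNA helicase of translation initiation, showed no such step, with 108 and 99.3 FPKM in D8A and 61 and 104 FPKM in D8B. CAN1, the arginine permease, was at 18.1 and 26.3 FPKM in D8A and at 43.9 and 68.3 FPKM in D8B, higher over long features (limma adjusted p = 1.38e-05; 0.134 over all features). MET17, ADE2 and TRP1 did not pass, with differences of -0.22, 0.35 and 0.33 on the log2 scale.

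**Figure D1:**
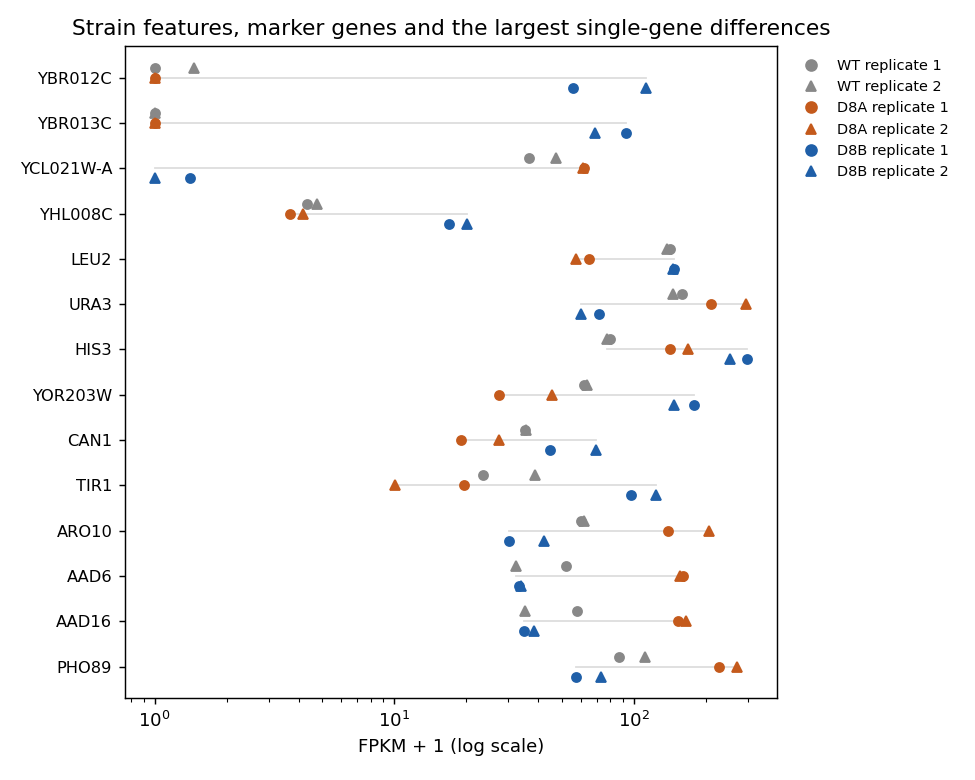
FPKM + 1 on a log axis for 14 features in the 6 libraries, circles for replicate 1 and triangles for replicate 2, with a grey line over the range. YBR012C and YBR013C sit at or near 1 in D8A and wild type and between 54.9 and 112 FPKM in D8B, YCL021W-A shows the opposite, and URA3 is lower while LEU2, HIS3 and YOR203W are higher in D8B.

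Genes of iron acquisition were higher in D8B as a group. Of 27 iron genes of 300 bp or more, 22 were higher in D8B in the long-feature fit and none was lower, against 1.62% higher among all long features. In the iron uptake list 6 of 7 genes passed, in siderophore uptake 9 of 9 and in iron saving 7 of 11. The median differences of the 3 lists over all members tested were 1.22, 2.34 and 0.95 on the log2 scale, against 0.07 over all features. Over all features only FTR1 passed, while 26 of the 29 members had an unadjusted p under 0.05 and 0 did in the other direction. Among all 6925 features 328 were higher and 308 lower at that level. These lists were assembled with earlier results of the same libraries known.

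FIT2 and FIT3 code for mannoproteins of the cell wall that retain siderophores, the iron carriers that yeast takes from its surroundings. FIT3 (chrXV:1060441-1061055) was at 443 and 20.2 FPKM in D8A, at 1139 and 2868 FPKM in D8B and at 107 and 150 FPKM in wild type. FIT2 (chrXV:1059531-1059992) was at 921 and 55.3 FPKM in D8A, at 2403 and 3669 FPKM in D8B and at 177 and 296 FPKM in wild type. Both genes were highest in D8B, but the 2 D8A libraries stood 21.9-fold apart for FIT3 and 16.6-fold for FIT2, one above and one below wild type. The difference for FIT3 was 4.22 on the log2 scale, with an SE of 0.33 and a limma adjusted p of 2.54e-26 over long features, and an SE of 1.19 and an adjusted p of 0.295 over all. The same fits gave 3.70 for FIT2, with adjusted p = 6.86e-22 and 0.315. The 4 neighbouring genes FRE3, FIT2, FIT3 and FRE5 (chrXV:1055545-1063648) passed together over long features, and no longer run of neighbouring calls in 1 direction was present.

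The siderophore transporters followed the same order of libraries. ARN2 was at 37.4 and 9.87 FPKM in D8A and at 136 and 219 FPKM in D8B (3.08 on the log2 scale; limma adjusted p = 2.24e-24 over long and 0.0856 over all features). SIT1 was at 89.2 and 12 FPKM in D8A and at 209 and 280 FPKM in D8B (2.83; limma adjusted p = 1.96e-18 and 0.267). ENB1, which imports enterobactin, was at 75 and 22.2 FPKM in D8A and at 197 and 226 FPKM in D8B (2.34; limma adjusted p = 5.01e-15 and 0.136). For each of the 3, the wild-type range held D8A replicate 1, while D8A replicate 2 was below it and both D8B libraries were above it.

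In the high-affinity uptake pair the D8A libraries were close for the permease and apart for the oxidase. FTR1, the iron permease (chrV:460526-461740), was at 133 and 95 FPKM in D8A, at 378 and 377 FPKM in D8B and at 195 and 192 FPKM in wild type. The 3 strains did not overlap, and the difference of 1.74 ± 0.24 (SE, log2) passed over all features (limma adjusted p = 0.0369). FET3, the multicopper oxidase that works with FTR1, was at 229 and 37.1 FPKM in D8A and at 362 and 539 FPKM in D8B (limma adjusted p = 5.72e-12 over long and 0.368 over all features). FRE2, a surface reductase of iron, was at 7.33 and 6.68 FPKM in D8A and at 18.1 and 30 FPKM in D8B (limma adjusted p = 6.17e-07 and 0.0762). CTR1, the copper transporter, did not pass in either fit, with 191 and 135 FPKM in D8A and 233 and 232 FPKM in D8B.

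Among genes that spare or mobilise iron, TIS11 (also CTH2), whose product destabilises messenger RNAs of iron-using proteins, was at 61.2 and 8.73 FPKM in D8A and at 100 and 131 FPKM in D8B (2.23 on the log2 scale; limma adjusted p = 8.91e-13 over long and 0.379 over all features). ISU2, a scaffold of iron-sulphur cluster assembly, was at 122 and 125 FPKM in D8A, at 266 and 253 FPKM in D8B and at 104 and 110 FPKM in wild type (1.06; limma adjusted p = 0.00154 and 0.0956). HMX1, the haem oxygenase, was at 27.8 and 13.2 FPKM in D8A and at 42.6 and 49.3 FPKM in D8B (1.21; limma adjusted p = 7.96e-05 and 0.289). ISU2 differed between the strains with close replicates, whereas TIS11 and HMX1 did not have close D8A replicates. CTH1, ISU1, VHT1 and FTH1 did not pass, with differences from -0.26 to 0.68 on the log2 scale.

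The size of the iron difference rested on which D8A library was used. Over the 29 members the median of D8B minus D8A replicate 1 was 0.86 and that of D8B minus D8A replicate 2 was 1.72 on the log2 scale. Over long features, 18 of 27 passed without D8A replicate 1 and 6 without D8A replicate 2, which were FTR1, FRE2, ARN2, SIT1, ENB1 and ISU2. Without D8B replicate 1 or 2 it was 19 and 14. Against wild type the iron genes had a median of -0.12 and -1.02 in the D8A libraries and 0.81 and 1.15 in D8B.

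**Figure D2:**
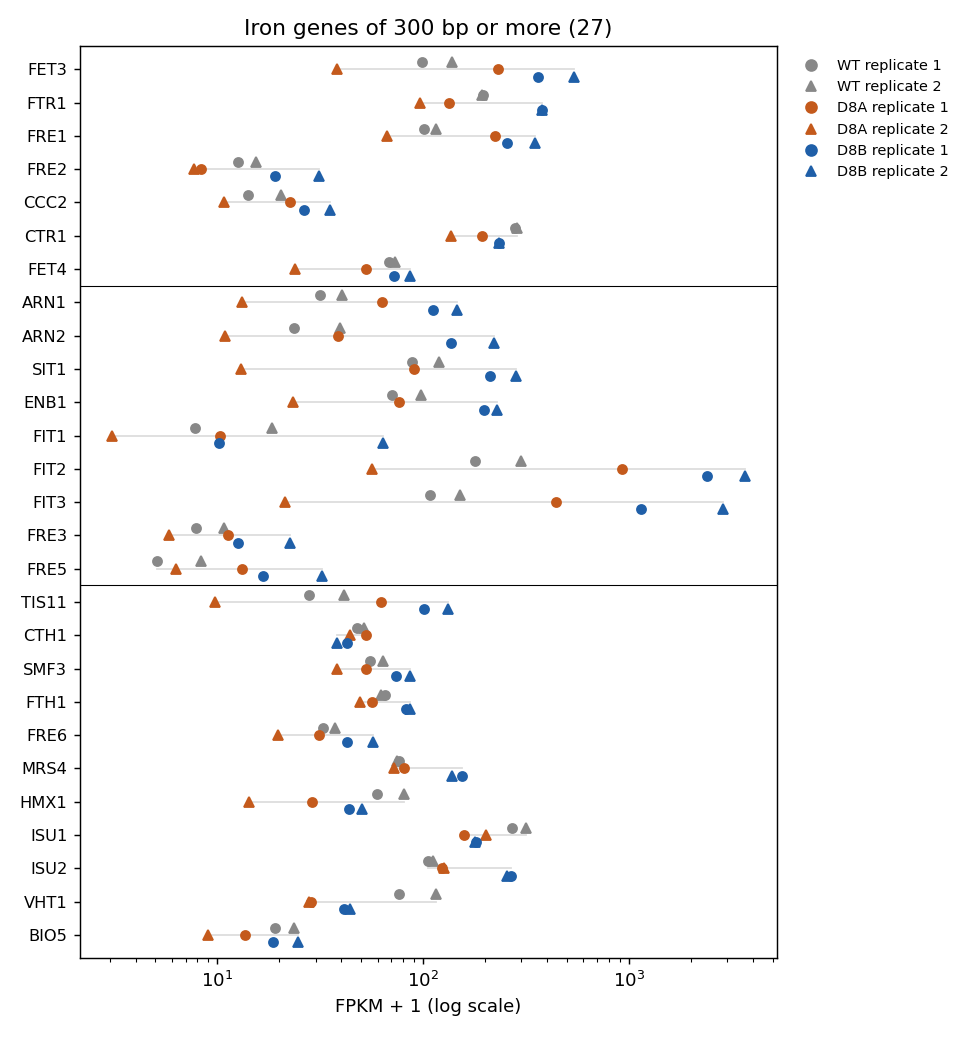
FPKM + 1 on a log axis for the 27 iron genes of 300 bp or more, in the order iron uptake, siderophore uptake and iron saving, separated by lines. Blue D8B symbols lie to the right for nearly all genes, and the 2 orange D8A symbols are far apart for FIT2, FIT3, FET3, SIT1 and TIS11.

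The promoters of these genes were read for the core of the Aft1 site, GCACCC, on both strands, from 250 bases before to 50 bases after the annotated start of the coding sequence. It was found in 16 of the 29 iron promoters (55.2%), in 20 of 82 promoters of genes called higher in D8B (24.4%), in 3 of 84 called lower (3.57%) and in 4.15% of 5594 promoters of all long features. The iron genes are part of those called higher, so these shares are not independent. A match describes these letters and does not show that a factor was bound. The promoters of the 4 genes below, in the RefSeq R64 reference, show matches, in capitals, beside the values given above. FIT3 is chrXV:1061006-1061305 on the minus strand, FIT2 is chrXV:1059281-1059580 on the plus strand, FTR1 is chrV:461691-461990 on the minus strand and SIT1 is chrV:27407-27706 on the plus strand. GGGTGC is the same site read on the other strand.
FIT3: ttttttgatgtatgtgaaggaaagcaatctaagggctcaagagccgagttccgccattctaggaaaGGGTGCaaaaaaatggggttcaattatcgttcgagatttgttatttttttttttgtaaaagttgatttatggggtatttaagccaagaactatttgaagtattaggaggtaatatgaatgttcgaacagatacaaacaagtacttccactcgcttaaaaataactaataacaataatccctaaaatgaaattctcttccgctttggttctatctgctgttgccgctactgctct
FIT2: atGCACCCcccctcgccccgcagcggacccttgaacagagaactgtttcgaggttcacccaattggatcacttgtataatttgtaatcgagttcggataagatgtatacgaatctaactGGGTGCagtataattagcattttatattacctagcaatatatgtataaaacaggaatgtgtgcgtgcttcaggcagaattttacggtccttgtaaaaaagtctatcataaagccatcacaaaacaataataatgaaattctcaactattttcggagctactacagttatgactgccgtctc
FTR1: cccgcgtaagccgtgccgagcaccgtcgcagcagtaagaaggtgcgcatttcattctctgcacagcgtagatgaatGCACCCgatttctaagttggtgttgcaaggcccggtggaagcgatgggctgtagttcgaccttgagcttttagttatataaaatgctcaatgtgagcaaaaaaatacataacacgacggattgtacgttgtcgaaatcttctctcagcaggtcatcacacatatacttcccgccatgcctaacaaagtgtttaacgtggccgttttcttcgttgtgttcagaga
SIT1: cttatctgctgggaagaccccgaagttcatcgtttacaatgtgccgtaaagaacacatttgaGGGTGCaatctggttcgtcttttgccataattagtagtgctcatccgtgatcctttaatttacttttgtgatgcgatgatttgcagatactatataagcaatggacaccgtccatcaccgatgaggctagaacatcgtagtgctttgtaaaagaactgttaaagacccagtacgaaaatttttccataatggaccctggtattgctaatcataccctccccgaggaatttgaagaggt
FIT2 held 2 matches and the other 3 held 1 each, while the window of ARN2 held none.

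Genes of ergosterol synthesis, the pathway that makes the main sterol of yeast membranes, were higher in D8B. Of 25 genes, all of 300 bp or more, 9 passed over long features (1.62% higher among all) and none was lower. All 25 differences were above 0, as were 4056 of the 6925 over all features, and their median was 0.52 on the log2 scale. Without D8A replicates 1 and 2 the number that passed was 5 and 6, and without D8B replicates 1 and 2 it was 5 and 4. In 20 of the 25 both D8B libraries lay above both D8A libraries, which held for 20% of all long features. The genes that passed work late in the pathway or as electron donors, namely ERG24, ERG25, ERG26, ERG28, ERG6, ERG2, ERG3, ERG4 and NCP1. Against wild type the list stood at -0.60 and -0.51 in the D8A libraries and at -0.04 and -0.03 in D8B, so the D8A libraries were below wild type and the D8B libraries at its level. Here the 2 D8A libraries lay close together.

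ERG28, the scaffold of the C-4 demethylation complex (chrV:237570-238016), was at 90 and 81.2 FPKM in D8A, at 269 and 253 FPKM in D8B and at 388 and 313 FPKM in wild type. The strains did not overlap, and the difference of 1.60 ± 0.22 (SE, log2) passed over all features (limma adjusted p = 0.0369). ERG2, the sterol isomerase, was at 312 and 364 FPKM in D8A and at 998 and 771 FPKM in D8B (1.38; limma adjusted p = 6.13e-05 over long and 0.0841 over all features). ERG3, an iron enzyme that desaturates the sterol ring, was at 479 and 363 FPKM in D8A, at 1147 and 1117 FPKM in D8B and at 498 and 451 FPKM in wild type (1.44; limma adjusted p = 2.13e-05 and 0.0762). ERG3 was above wild type in D8B, whereas ERG2 was at most at its level. ERG1 and ERG11, earlier in the pathway and the targets of common antifungal drugs, did not pass, with differences of 0.23 ± 0.21 and 0.43 ± 0.22 (SE, log2). HES1, an oxysterol-binding protein, was at 12.9 and 7.21 FPKM in D8A and at 29.5 and 46.9 FPKM in D8B (limma adjusted p = 1.59e-09 over long and 0.116 over all features). ATF2, which acetylates sterols, was at 22.1 and 14.6 FPKM in D8A and at 48.6 and 50.7 FPKM in D8B (limma adjusted p = 1.08e-06 and 0.0652), and it overlaps YGR176W by 239 bp.

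Among 12 hypoxic genes 3 were higher and none lower over long features (1.62% higher among all), with a list median of 0.41 on the log2 scale. Without D8A replicate 1 only TIR1 passed. TIR1, a cell wall mannoprotein made under cold shock and low oxygen (chrV:175248-176012), was at 18.6 and 9.07 FPKM in D8A, at 96.2 and 123 FPKM in D8B and at 22.6 and 37.9 FPKM in wild type. D8B was above all other libraries, by 2.97 ± 0.36 (SE, log2) over D8A (limma adjusted p = 0.0226 over all features). ANB1, the hypoxic form of translation factor eIF5A, was at 7.36 and 11 FPKM in D8A and at 36.1 and 21.4 FPKM in D8B (limma adjusted p = 1.89e-07 over long and 0.115 over all features). AAC3, the hypoxic ADP/ATP carrier, was at 3.8 and 7.75 FPKM in D8A and at 18.9 and 14.6 FPKM in D8B (limma adjusted p = 2.26e-05 and 0.141). ANB1 and AAC3 were at or below the wild-type level in D8B, while TIR1 was above it. Part of the TIR1 sequence (13% of its 50-base words) occurs elsewhere in the genome.

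The respiratory chain moved the other way. Of 18 long genes of complexes II to IV, with CYC1 counted in complex IV, 11 were lower in D8B in the long-feature fit (1.57% among all long features). None was higher, and the median over 24 members of any length was -0.87 on the log2 scale. SDH2, the iron-sulphur subunit of succinate dehydrogenase (chrXII:53131-53931), was at 103 and 212 FPKM in D8A, at 47.4 and 35.4 FPKM in D8B and at 124 and 98 FPKM in wild type. SDH1, its flavoprotein subunit (chrXI:169207-171129), was at 64 and 112 FPKM in D8A, at 28.1 and 28 FPKM in D8B and at 136 and 129 FPKM in wild type. Both D8B libraries were below the other 4 for both genes, with differences of -1.82 ± 0.24 and -1.56 ± 0.24 (SE, log2; limma adjusted p = 3.97e-10 and 7.92e-08 over long features, 0.104 and 0.077 over all).

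In complex III, CYT1, the cytochrome c1 subunit, was at 83.5 and 143 FPKM in D8A, at 43.2 and 36.4 FPKM in D8B and at 155 and 139 FPKM in wild type (-1.44; limma adjusted p = 1.32e-06 over long and 0.109 over all features). RIP1, the Rieske iron-sulphur protein, was at 128 and 224 FPKM in D8A and at 78.6 and 92.9 FPKM in D8B (-0.98; limma adjusted p = 0.00614 and 0.333). The core subunits COR1 and QCR2 and the small subunit QCR7 also passed, by -0.92 to -1.05 (limma adjusted p from 0.192 to 0.504 over all features). In complex IV, COX4 and COX6 passed over long features, at -0.89 and -0.88. CYC1, the main cytochrome c, passed as well and is counted in this list, although it is not a subunit of complex IV. Over all features the limma adjusted p of these genes ran from 0.434 to 0.605. CYC1 was at 317 and 759 FPKM in D8A and at 371 and 163 FPKM in D8B, so the strains overlapped. COX5B, the hypoxic form of subunit 5, was the only member of the 24 above 0, at 0.34 ± 0.27 (SE, log2), and did not pass. NDI1, the internal NADH dehydrogenase that stands in for complex I in yeast, was at 50.9 and 70.7 FPKM in D8A and at 23.3 and 26.1 FPKM in D8B (-1.25; limma adjusted p = 2.57e-05 and 0.0767), and NDE1, an external one, was lower over long features as well (-0.95; limma adjusted p = 0.00925 and 0.207).

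Complex V did not pass for any of its 10 long or 15 total members in limma, and 1 had an unadjusted p under 0.05. All 15 differences were below 0, with a median of -0.49 on the log2 scale. The mitochondrial ribosome had no call among 70 tested, 7 lower at an unadjusted p under 0.05, and a median of -0.28. Among all 6925 features 308 were lower at that level.

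As with iron, the D8A libraries differed here. Against wild type, the 24 genes of complexes II to IV stood at -0.88 in D8A replicate 1 and -0.04 in D8A replicate 2, and at -1.14 and -1.37 in D8B. The median difference was -0.37 against D8A replicate 1 and -1.32 against D8A replicate 2. Over long features 12 of 18 passed without D8A replicate 1 and 3 without D8A replicate 2, namely SDH1, SDH2 and CYT1. The D8A library with the lower iron genes was thus the one with the higher respiratory genes.

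**Figure D3:**
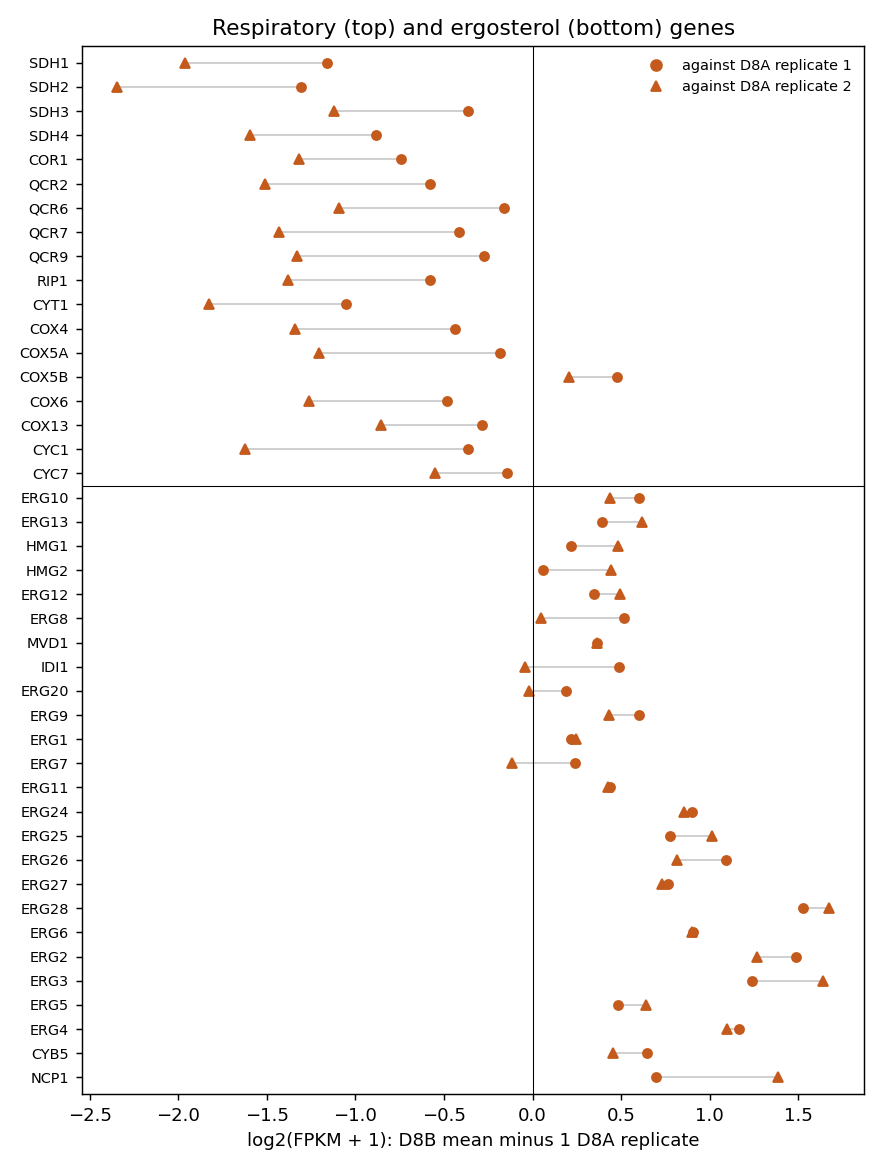
Difference in log2(FPKM + 1) of the D8B mean from each D8A library, circles for D8A replicate 1 and triangles for replicate 2. Shown are 18 genes of complexes II to IV, with CYC1 counted in complex IV, above the line and 25 ergosterol genes below it. The circles of the respiratory genes lie nearer 0 than the triangles, and the ergosterol genes lie to the right of 0 against either library but for a few.

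The Hap complex binds CCAAT. These letters were found, on either strand, in 19 of 24 promoters of complexes II to IV (79.2%), in 40 of 84 promoters called lower (47.6%), in 29 of 82 called higher (35.4%) and in 43.9% of all. The promoter of SDH2 (chrXII:53882-54181, minus strand, R64) is shown because SDH2 had the largest difference in the group. Its 2 matches lie on opposite strands 1 base apart, and no match was present in the window of CYT1.
SDH2: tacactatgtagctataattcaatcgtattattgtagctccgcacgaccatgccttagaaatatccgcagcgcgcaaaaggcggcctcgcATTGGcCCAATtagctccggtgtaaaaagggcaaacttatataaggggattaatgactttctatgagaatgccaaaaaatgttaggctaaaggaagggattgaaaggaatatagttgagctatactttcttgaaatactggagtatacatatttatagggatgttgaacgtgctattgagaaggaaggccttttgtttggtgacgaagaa

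The other motifs searched gave the following shares. TCGTATA, the core of the Upc2 site of sterol genes, was in 3 of 25 ergosterol promoters (12%) and in 4.22% of all. CACGTG, bound by Pho4, was in 3 of 15 promoters of the phosphate regulon (20%) and in 2.95% of all, and in neither PHO5 nor PHO89 within this window. TTACTAA, the Yap1 site, was in 8.54% of promoters called higher, 9.52% of those called lower and 7.69% of all. TGAAAAA, found at ribosome biogenesis genes, was in 23.2%, 21.4% and 32.4%. AGGGG, bound by Msn2 and Msn4, was in 12 of 24 promoters of complexes II to IV (50%) and in 21.6% of all.

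**Figure D4:**
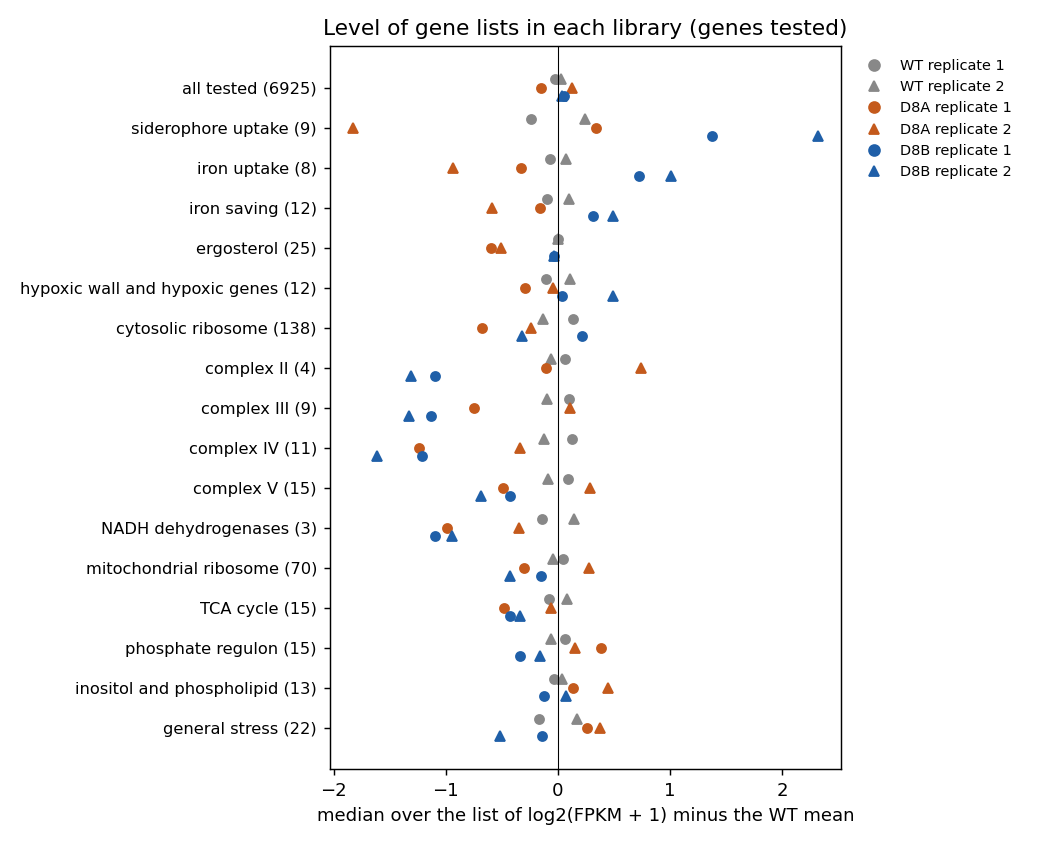
Median over a list of log2(FPKM + 1) minus the wild-type mean, in each of the 6 libraries, with the number of genes tested in brackets. D8B lies at the right for the iron lists and at the left for complexes II to IV, the 2 D8A libraries are apart for both, and the ergosterol list is at about -0.60 and -0.51 in D8A and near 0 in D8B.

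Among the single genes lower in D8B, ARO10 and ARO9 belong to the Ehrlich pathway, which breaks down aromatic amino acids to fusel alcohols. ARO10, a decarboxylase (chrIV:1234218-1236125), was at 138 and 205 FPKM in D8A, at 29.3 and 41.4 FPKM in D8B and at 59.2 and 61.2 FPKM in wild type. D8A was above wild type and D8B below it, with a difference of -2.24 ± 0.26 (SE, log2; limma adjusted p = 0.0212 over all features). ARO9, the matching transaminase, was at 57.9 and 91 FPKM in D8A and at 17.6 and 23.9 FPKM in D8B (limma adjusted p = 2.34e-10 over long and 0.0538 over all features). It overlaps YHR137C-A over 651 bp, so the call of YHR137C-A is not separate, and SPL2 beside them was lower as well.

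AAD6 and AAD16, neighbouring parts of an aryl-alcohol dehydrogenase gene near the left end of chromosome VI (chrVI:14305-15431), were higher in D8A than in the other 4 libraries. AAD6 was at 159 and 155 FPKM in D8A, at 32.2 and 33 FPKM in D8B and at 51.4 and 31.2 FPKM in wild type. AAD16 was at 152 and 164 FPKM in D8A and at 33.8 and 37.5 FPKM in D8B. Their differences of -2.23 and -2.12 passed over all features (limma adjusted p = 0.0196 and 0.0226), and 43.9% of the 50-base words of AAD16 occur elsewhere. The related genes AAD4 and AAD14 did not pass, at -0.50 and -0.08.

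In the phosphate regulon, which takes up and frees phosphate, 3 of 15 genes were lower over long features (1.57% lower among all) and none was higher. Without any one null library PHO89 and PHO5 passed and SPL2 did not. PHO89, a sodium-phosphate transporter (chrII:796798-798522), was at 226 and 270 FPKM in D8A, at 56.5 and 72.2 FPKM in D8B and at 86.1 and 110 FPKM in wild type. D8B lay below wild type and D8A above it (-1.94 ± 0.24, SE, log2; limma adjusted p = 0.0226 over all features). PHO5, the secreted acid phosphatase, was at 186 and 139 FPKM in D8A and at 49 and 64.6 FPKM in D8B (-1.50; limma adjusted p = 4.62e-07 over long and 0.0652 over all features), and SPL2, a regulator of low-affinity phosphate uptake, also passed over long features (-0.85; limma adjusted p = 0.0259 and 0.307). The list median was -0.46, and 14 of 15 differences were below 0.

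Among 19 long general stress genes 4 were lower over long features (1.57% lower among all) and none was higher. Of these 4, only HXK1 kept its call whichever null library was left out. HXK1, the hexokinase induced when glucose runs low, was at 201 and 206 FPKM in D8A, at 97.6 and 69.3 FPKM in D8B and at 43.9 and 39.2 FPKM in wild type (-1.29; limma adjusted p = 2.16e-05 over long and 0.077 over all features). TSL1 and TPS2, of trehalose synthesis, and GPH1, the glycogen phosphorylase, passed over long features at -1.09, -0.75 and -0.92, with limma adjusted p from 0.127 to 0.338 over all features. TPS2 and GPH1 lost their calls whichever null library was left out, and TSL1 without D8A replicate 1. The core of the stress element bound by Msn2 and Msn4, AGGGG, was in 14 of 22 promoters of the list (63.6%), in 31% of those called lower and in 21.6% of all. UBI4, the stress-induced polyubiquitin gene, was at 667 and 794 FPKM in D8A and at 332 and 312 FPKM in D8B (-1.18; limma adjusted p = 0.000884 over long and 0.107 over all features).

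Other lower genes, each by the long-feature fit, were PTR2, the peptide transporter (-1.36; limma adjusted p = 3.33e-06), PUT1, of proline breakdown (-1.24; adjusted p = 4.15e-05), ADR1, the activator of glucose-repressed genes (-1.14; adjusted p = 0.00125), BIO2, the biotin synthase, an iron-sulphur enzyme (-1.11; adjusted p = 0.000511), and OPI3, of phosphatidylcholine synthesis (-1.02; adjusted p = 0.00579). Over all features their adjusted p ranged from 0.0538 for PTR2 to 0.267 for ADR1. YNR064C, an epoxide hydrolase gene, was at 55.3 and 76.6 FPKM in D8A and at 11.3 and 18 FPKM in D8B (-2.11; limma adjusted p = 7.48e-14 over long and 0.0567 over all features). Its D8A libraries lay above all other 4.

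Beside the markers LEU2 and HIS3, 5 synthesis genes of the amino acid lists were higher in D8B over long features, HIS4, HIS1, ARG7, MET3 and MET6. They were 2 of 19 genes in the list that holds the histidine genes, where 2 others were lower, 1 of 11 arginine genes and 2 of 22 sulphur genes. The share higher among all long features was 1.62%. None of 10 branched-chain genes passed. Both D8B libraries were below wild type for each of the 5. HIS4 was at 76.8 and 78.7 FPKM in D8A, at 174 and 153 FPKM in D8B and at 283 and 380 FPKM in wild type (1.06; limma adjusted p = 0.00175 over long and 0.147 over all features). HIS1, ARG7, MET3 and MET6 differed by 0.82 to 1.16, with limma adjusted p from 0.000278 to 0.0372 over long features and from 0.255 to 0.334 over all. OAC1, a mitochondrial carrier of oxaloacetate and isopropylmalate, was at 67.4 and 88.7 FPKM in D8A, at 169 and 171 FPKM in D8B and at 626 and 603 FPKM in wild type (1.13; limma adjusted p = 0.000761 and 0.116). DIC1, the dicarboxylate carrier, was at 32.3 and 34.7 FPKM in D8A and at 90.1 and 71 FPKM in D8B (1.23; limma adjusted p = 3.93e-05 and 0.0762), and it shares 353 bp with YLR349W. Among 13 genes of daughter-cell separation, DSE1 and DSE4 were higher over long features (0.97 and 1.08; limma adjusted p = 0.00355 and 0.000498, and 0.113 and 0.0988 over all features; 1.62% higher among all). Only DSE1 passed without D8A replicate 2, only DSE4 without D8B replicate 1 and neither without D8B replicate 2.

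Many lists had no call in limma in either fit. For comparison, 328 of all 6925 features were higher in D8B and 308 lower at an unadjusted p under 0.05. Among 138 genes of the cytosolic ribosome none passed and 2 had an unadjusted p under 0.05, although 137 differences were above 0, with a median of 0.41. The list stood at -0.68 and -0.24 against wild type in D8A and at 0.21 and -0.32 in D8B, so the libraries overlapped, and the median was 0.09 under quantile normalization. None passed among 15 genes of the tricarboxylic acid cycle (1 higher and 3 lower at an unadjusted p under 0.05), 18 chaperones (2 lower), 19 glycolytic genes (1 higher), 8 of haem synthesis (1 lower), and 16 antioxidant and 32 proteasome genes (none at that level in either list). Their list medians were -0.01, 0.06, 0.28, 0.23, 0.10 and -0.16. The 20 a-specific and pheromone response genes had no call either, with 1 lower at an unadjusted p under 0.05 and a median of -0.01.

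Chromosome V stood apart in level. The level of a chromosome was the median of its features minus the median of the other nuclear chromosomes, relative to wild type. For chromosome V it was -0.06 in both D8A libraries and 0.08 and 0.22 in D8B, with -0.01 and 0.01 in wild type. D8B was above D8A by 0.17 on the log2 scale, a ratio of 1.12, and 77.7% of its 350 features had a higher D8B mean, against 49.7% to 62.1% on the other 15 chromosomes. These levels are a description with no test, and without D8B replicate 2 the difference was 0.08. Long features with a mean of at least 10 FPKM were also taken in 8 blocks along the chromosome, and the median difference ran from 0.08 to 0.33. The libraries overlapped in some blocks. In the last block D8B replicate 1 (0.103) lay below both D8A libraries (0.287 and 0.193), with D8B replicate 2 at 0.428. In the block from 213437 to 279626, D8B replicate 1 (-0.135) lay below D8A replicate 2 (-0.127). In the other blocks both D8B libraries were above both D8A libraries. Of its 303 long features 13 were higher (4.29%, against 1.62% of all) and 3 lower, and the genes SIT1, TIR1, ERG28, FTR1, TMT1 and CAN1 described here are among the higher ones, while URA3 is among the lower.

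Chromosome VI had lower levels in D8B, with values of 0.06 and 0.04 in D8A and -0.03 and -0.11 in D8B, a difference of -0.07. On chromosome I the 2 D8A libraries alone stood at 0.13 and -0.05. Of the 130 long features of chromosome VI 8 were lower (6.15%, against 1.57% of all) and none higher. The 8 include the neighbours AAD16 and AAD6, YFL012W and HXT10, and YFR052C-A and HXK1, so they are not all separate places. Chromosome XI, which the source name of the wild type mentions, was at 0.03 in both D8A libraries and at 0.01 and 0.05 in D8B, a difference of -0.03 with overlapping libraries. The differences of the other 13 chromosomes ranged from -0.03 to 0.03.

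**Figure D5:**
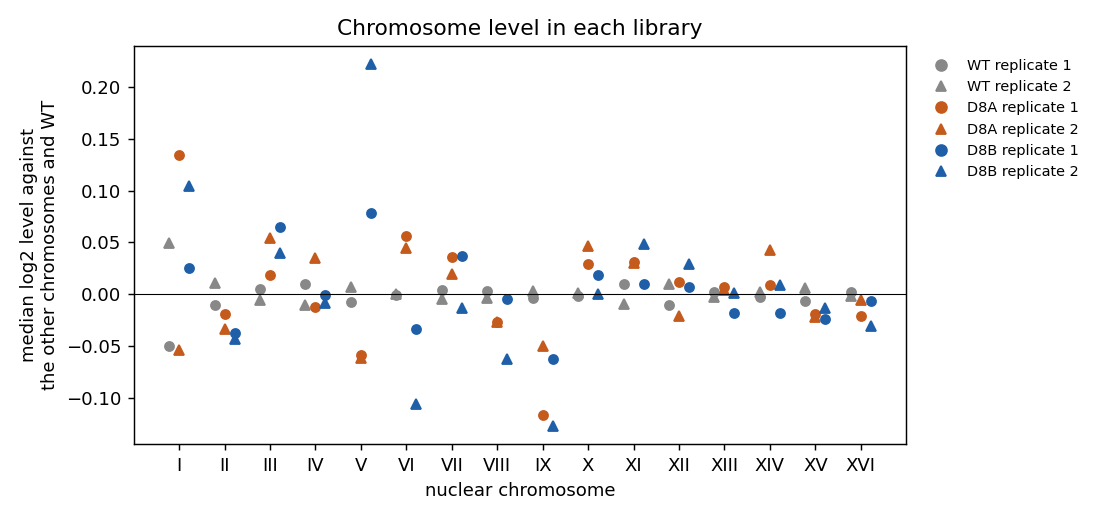
Level of each nuclear chromosome in each library, on the log2 scale, as the median of its features against the other chromosomes and against wild type. On chromosome V the D8B libraries are at 0.08 and 0.22 and both D8A libraries at -0.06, and on chromosome VI the order is reversed.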

How the data were processed

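RNA sequencing of 6 yeast libraries was used, 2 for each of 3 strains, and the strains were grouped by their titles. Each library has 1 deposited table with FPKM and both bounds of its confidence interval, per the file headers. The submitters' processing notes name Cufflinks 2.1.1, TopHat2 2.0.9 and Bowtie2 2.1.0, with the build R64. The use of strand in counting is not stated there, and reads of antisense and overlapping features cannot be separated.

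Each deposited table held 7126 features, and 7051 had the status OK in every library. Features with a mean of at least 1 FPKM were kept, which left 6925, and all 55 mitochondrial features, listed at 0 in every library, dropped out. The RefSeq R64 annotation held 6048 of the identifiers, 5994 of them at the same coordinates. Interval bounds took whole multiples of 1 amount per library (97% to 98.6% of low bounds, tolerance 0.02), and that amount gave the depth. The FPKM values were not turned into counts, and the fragments given for a feature are its interval bounds in these steps. FPKM exceeded the midpoint of the interval by a median factor of 33.7 to 53.8 under 150 bp and of 1.03 to 1.06 from 1200 bp on. Zeros are given as listed.

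With limma 3.58.1 (R 4.3.3), a linear model of log2(FPKM + 1) with a mean for each strain was fitted over all 6 libraries, with variances moderated along a trend with the mean. The pseudocount of 1 understates the change of weakly expressed genes. Adjusted p-values are two-sided Benjamini-Hochberg values over all features of a fit, with a threshold of 0.05. There were 3 residual degrees of freedom, with 4.71 prior degrees of freedom over all features and 247 over those of 300 bp or more. Data were also simulated with the real means and with spreads drawn from the prior of each fit. There the all-feature fit found 27 of 100 genes changed by 1 on the log2 scale and 89 of 100 changed by 2. The long-feature fit found 69 and 100 of 100. False calls numbered 8 and 14. Genes with D8A libraries as far apart as those of FIT3 were not represented over long features. The shares therefore describe each fit under its own assumptions and not its recovery in these libraries. The errors after a ± sign are those of the fit whose adjusted p stands in the sentence, of the long-feature fit where both are given, and of the all-feature fit where none is.

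Named genes were the deleted and marker genes, the 15 largest rises and 15 largest falls among called features of 300 bp or more with a mean of at least 10 FPKM in the null libraries and no overlap, at most 4 members per list among those called, and members of runs of neighbouring calls. The rule was applied to both fits. A few genes were named for comparison after their values were seen, among them DED1, TIM9, CTR1, ERG1, ERG11, COX5B, AAD4, AAD14, STE2 and STE3. The comparison, the gene lists and the tests were chosen with earlier results of these data known. Lists were described by counts and medians and not tested.

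Promoters were read from the R64 genome from 250 bases before to 50 bases after the start of 5865 protein-coding genes. Both strands were searched for the letters given beside each share, and no motif contains another. Copies elsewhere in the genome were counted as 50-base words. Alternatives changed the pseudocount, the filter, the length minimum, the scaling, the moderation, the library weights, the use of the interval midpoint, the replicate block and the libraries included.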

Additional observations from a re-analysis of the deposited data

How the results depend on the processing

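The number of features called between D8B and D8A, 23, became 41 with a pseudocount of 10, 197 over features of 300 bp or more, 116 with robust moderation, 10 with array weights and 84 with the interval midpoint in place of FPKM. Array weights could not separate libraries within a strain of 2. Leaving out 1 library gave 10 to 104, the highest without D8A replicate 2. Over features of 300 bp or more, where 197 were called, the interval midpoint gave 194 and leaving out 1 null library 97 to 127 (110 and 97 without D8A replicates 1 and 2, 127 and 117 without D8B replicates 1 and 2). The labels give the strains the same replicate numbers, but the replicate deviations of D8A and D8B correlated at r = -0.254, those of wild type with D8A at -0.148 and with D8B at 0.332. Not every pair is positive, and the numbers were not taken to pair the samples. With a replicate block 9 were called (47 over features of 300 bp or more), and with the D8A numbers crossed, chosen after seeing the data, 91. In the block fit over features of 300 bp or more, 3 of 27 iron genes passed, which were FTR1, FRE2 and ARN2. Of 25 ergosterol genes 1 passed, ERG28, and of 18 genes of complexes II to IV 2 passed, SDH1 and SDH2. The other alternatives kept the count within 1.5 times. YBR013C, YBR012C, YAR035C-A, YCL021W-A and YGR204C-A passed under every alternative listed in the methods that tested them.

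Leaving out 1 library moved the difference of chromosome V between 0.08 and 0.27 and that of chromosome XI between -0.03 and 0.01. It moved the median of iron uptake between 0.72 and 1.69, of iron saving between 0.67 and 1.06, of siderophore uptake between 1.43 and 3.27, of ergosterol between 0.50 and 0.60, of complex III between -1.38 and -0.57, of complex IV between -1.12 and -0.14 and of the cytosolic ribosome between 0.15 and 0.70. Quantile normalization put the ergosterol median at 0.40 and that of the cytosolic ribosome at 0.09. The cause of these movements was not tested. Depth was lowest in D8A replicate 1, which limits what could be detected in that library.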
